A study of Mus musculus with 4 samples.

Results

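The cytosolic ribosomal protein genes were examined in the population-based replication timing profile of diploid F121-9 cells, a hybrid cas/129 mouse embryonic stem cell (mESC) line grown in N2B27 medium with 2i and LIF. In Repli-seq, cells take up BrdU, a nucleotide analog, into nascent DNA and are sorted by DNA content, and the labeled DNA of each part of S-phase is sequenced. All libraries came from this 1 line, 2 of the early S-phase fraction and 2 of the late S-phase fraction, and the labels do not say whether replicates 1 and 2 were separate cultures. For each 50 kb bin the deposited profile has 1 number, RT, which compares early with late reads on a log2 scale. RT above 0 thus means a higher read density in the early fraction. It is a single column for all libraries, and the sources do not say how the replicates entered it. The spread between replicates is therefore unknown for every gene.

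The genes were chosen by symbol and not by RT. They are the protein-coding genes of GENCODE vM21 on chromosomes 1 to 19 with the symbols Rpl or Rps, digits and at most 1 closing letter or digit, together with Rplp0, Rplp1, Rplp2 and Rpsa. Pseudogene symbols and symbols that begin with Rps6k were left out. This gave 76 genes of 20807, and each took the RT of the bin that holds its gene start. All 76 had a value, as did 20732 of the protein-coding genes. There were 46 genes of the large subunit and 30 of the small subunit. Rps3a1, Fau and Rack1, whose symbols do not match, and Rpl10, Rpl36a, Rpl39 and Rps4x, which lie on X, are described separately.

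Ribosomal proteins are the protein part of the cytosolic ribosome. The small subunit decodes the mRNA and the large subunit joins amino acids, and every dividing cell makes most of these proteins in nearly equal numbers from genes that are scattered over the genome. Many of the genes carry small nucleolar RNAs in their introns, and processed copies without introns are common. In mammalian cells, early replication in general goes with gene-dense, transcribed chromatin. No expression was measured here.

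The start regions of 5 members show what kinds of gene the list holds, from the latest member, a gene without introns, to one of the earliest. They are 5 of the members for which the RefSeq start (GRCm38.p6, the same assembly as mm10) lies within 5 bases of the GENCODE start and no annotated exon overlaps the bases before it. Each line is the sequence before the start, 5′ to 3′ on the strand of the gene, with each CG dinucleotide in capitals, since clusters of CG mark the promoters of widely expressed genes.
Rpl10l, chr12:66284402-66284651, minus strand, RT -2.70: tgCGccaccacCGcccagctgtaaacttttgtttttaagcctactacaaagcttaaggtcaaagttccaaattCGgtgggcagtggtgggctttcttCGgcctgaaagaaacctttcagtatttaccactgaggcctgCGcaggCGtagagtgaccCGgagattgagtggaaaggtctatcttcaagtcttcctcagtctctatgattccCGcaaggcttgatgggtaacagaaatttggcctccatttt
Rpl39l, chr16:10169978-10170225, plus strand, RT 1.44: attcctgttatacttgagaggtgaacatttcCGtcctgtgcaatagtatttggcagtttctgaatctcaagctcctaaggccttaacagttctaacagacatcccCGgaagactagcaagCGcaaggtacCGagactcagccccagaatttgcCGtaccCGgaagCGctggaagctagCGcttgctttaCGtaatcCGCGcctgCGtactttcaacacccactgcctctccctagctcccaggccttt
Rpl24, chr16:55966025-55966274, plus strand, RT 2.98: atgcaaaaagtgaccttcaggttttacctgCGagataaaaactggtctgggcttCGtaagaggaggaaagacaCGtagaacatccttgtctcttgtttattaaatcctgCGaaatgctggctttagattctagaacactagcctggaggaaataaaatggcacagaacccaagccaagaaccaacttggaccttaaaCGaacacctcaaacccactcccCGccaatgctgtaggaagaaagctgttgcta
Rplp0, chr5:115559217-115559466, plus strand, RT 3.71: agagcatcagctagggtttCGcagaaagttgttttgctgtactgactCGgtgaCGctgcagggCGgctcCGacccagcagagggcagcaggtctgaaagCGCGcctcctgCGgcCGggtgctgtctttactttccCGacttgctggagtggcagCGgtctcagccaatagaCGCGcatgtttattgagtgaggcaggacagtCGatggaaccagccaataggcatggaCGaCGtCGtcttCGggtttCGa
Rps21, chr2:180257129-180257376, plus strand, RT 3.83: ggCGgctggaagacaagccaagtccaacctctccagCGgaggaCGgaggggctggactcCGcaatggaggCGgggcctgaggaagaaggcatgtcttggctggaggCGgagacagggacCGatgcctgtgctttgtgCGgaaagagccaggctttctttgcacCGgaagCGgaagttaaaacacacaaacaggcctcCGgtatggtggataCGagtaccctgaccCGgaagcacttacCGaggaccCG
These sequences hold 8, 12, 6, 19 and 15 CG. The order of CG is therefore not that of RT, as Rpl24 has the fewest CG and an RT of 2.98. RefSeq start regions were found for 56 of the 76 members. Their 250 bases before the start held a median of 18 CG (quartiles 11.8 and 21), compared with 11 (3 and 19) over 15638 protein-coding genes. The letters CCGGAAG, on either strand, were in 18 of the 56 (32.1%) and in 9.71% of all such sequences. The letters CTCTTTC, on either strand and with the 50 bases after the start included, were in 15 (26.8%) and in 7.84%. TATAAA, on either strand, was in 1 (1.79%) and in 11.9%. Of the 2 members with RT at or below 0, Rps23 held CTCTTTC, and neither Rps23 nor Rpl10l held CCGGAAG, like most members. The RefSeq start lay within 5 bases of the GENCODE start for 16 of the 56, so for the others letters close to the GENCODE start can fall outside the window. The starts were 3553 bases apart for Rps24, 2614 for Rpl18, 1947 for Rps2 and 1425 for Rps10. For these the sequence is that of another start region, and Rps2 was the member with TATAAA.

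The cytosolic ribosomal protein genes were early replicating with few exceptions. RT was above 0 in 74 of the 76 (97.4%, exact binomial 95% interval 90.8% to 99.7%, which covers the counting of genes only), where 74.1% of all protein-coding genes and 42.1% of all bins of chromosomes 1 to 19 had RT above 0. Their median RT was 3.39, compared with 2.35 over all protein-coding genes, a difference of 1.04. Quartiles were 2.79 and 3.62 for the ribosomal protein genes and -0.13 and 3.33 for all protein-coding genes, and the SD over genes was 1.11 against 2.30. RT was above 3 in 49 of the 76 (64.5%), while 36.8% of all protein-coding genes reached that level, and 41 members lay above the upper quartile of all protein-coding genes. No test was made, since the profile has no replicates and genes are not replicates of each other. The binomial interval treats the genes as independent. However, 22 members shared 8 stretches of consecutive bins with RT above 0, so the interval can be too narrow.

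**Figure D1:**
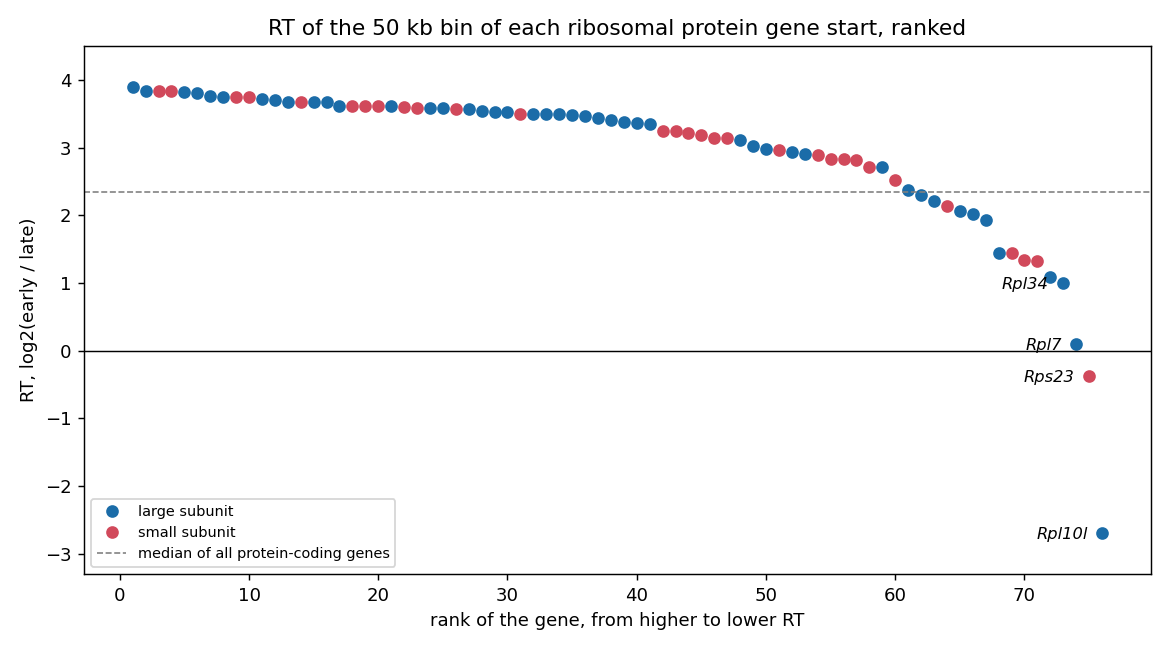
RT (y axis, log2 of early over late) of the 50 kb bin of each of the 76 gene starts, ranked from the highest to the lowest (x axis, rank), with large subunit genes in blue, small subunit genes in red and the median of all protein-coding genes, 2.35, as a dashed line. RT falls slowly from 3.90 to about 3 over the first 49 genes and then faster, and of the 4 lowest, which are named, Rps23 and Rpl10l are below 0.

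Noise from bin to bin sets how finely the members can be ordered. In flat stretches of the profile the noise SD of a single bin, estimated from its departure from the mean of its neighbors, was 0.16. For a difference between 2 bins this gives 0.22. Both values treat the noise of bins as independent, and they cover noise between bins and not differences between cultures. Of the 75 steps between genes that follow each other in the order of RT, 71 were under 2 SDs of a difference, 0.44. The exceptions were all at the lower end, from Rpl31 to Rpl39l (0.49), from Rpl34 to Rpl7 (0.90), from Rpl7 to Rps23 (0.47) and from Rps23 to Rpl10l (2.32). In the upper part of the order genes that follow each other are therefore not resolved, and the 10 earliest genes lay within 0.15 of each other. Steps between so many ordered genes are mostly small, and genes further apart in the order can differ by more than 0.44. The highest member was 0.51 above the median of the members.

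The earliest members came from both subunits. Rpl18 had the highest RT, 3.90 in its bin at chr7:45700001-45750000. The small subunit genes Rps21 and Rps16 had an RT of 3.83 each. Rpl23a (3.82), Rpl10a (3.80), Rpl22 (3.76), Rpl3l and Rps2 (3.75 each) and Rps15 (3.75) were also among the 10 earliest, which were all at or above the percentile 95.9 of protein-coding genes. Over all large subunit genes the median RT was 3.47 (quartiles 2.76 and 3.61, range -2.70 to 3.90), and over all small subunit genes it was 3.20 (2.82 and 3.61, range -0.38 to 3.83). RT was above 0 in 45 of 46 and in 29 of 30, respectively.

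Some members are known for a particular role. The stalk proteins, which recruit translation factors to the large subunit, had an RT of 3.71 (Rplp0), 3.72 (Rplp2) and 2.06 (Rplp1). Rpl5 and Rpl11, which bind the ubiquitin ligase Mdm2 when ribosome assembly is disturbed, had an RT of 3.37 and 3.62. Rps6, the substrate of the S6 kinases, had an RT of 3.13, and Rps19, the gene most often mutated in Diamond-Blackfan anemia, 3.18. Rpl38, needed for the translation of a set of Hox mRNAs in the mouse embryo, had an RT of 3.52. Rps27a, which encodes a fusion of ubiquitin and a small subunit protein, had an RT of 3.21 in the bin with the lowest GC content of all members, 39.3%.

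Rpl10l was the latest member. Its bin, chr12:66250001-66300000, had an RT of -2.70, at the percentile 8.62 of protein-coding genes, and the bins on either side had RT -2.89 and -2.97. Rpl10l is an intronless retrocopy of the X-linked gene Rpl10 and is expressed mainly in the male germ line. It was the 1 member with a single exon, whereas 5.52% of all protein-coding genes have 1 exon. Its bin holds no other protein-coding gene start, and the late run around it, 3600 kb of consecutive bins at or below 0, holds the start of 1 other, Mdga2. Its parent Rpl10, in the bin chrX:74250001-74300000, had an RT of 3.60.

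Rps23, whose protein lines the decoding center of the small subunit, was the other member below 0. RT was -0.38 in its bin, chr13:90900001-90950000, -0.21 in the bin to the left and -0.70 in the bin to the right. The run of bins at or below 0 around it was 10500 kb long. Even so, the bin lay within 50 kb of the highest RT in the 9 bins centered on it, and RT was 1.67 above the mean of the bins 400 kb to either side, -2.05. Rps23 thus stood on a late peak in still later surroundings. It was the only member on chromosome 13, where the median of all protein-coding genes was 1.25.

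Rpl7, a large subunit gene, stood at the boundary. RT was 0.10 in its bin, chr1:16100001-16150000, and 0.06 and -0.04 in the bins on either side. These differences from 0 are smaller than the noise of a bin, so its side of 0 is not resolved. Its early run was the shortest of any member, 150 kb, and ended at its own bin. The member above it in the order, Rpl34, had an RT of 1.00 and the second shortest run, 200 kb, which it shares with the start of Ostc, a subunit gene of the oligosaccharyltransferase.

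**Figure D2:**
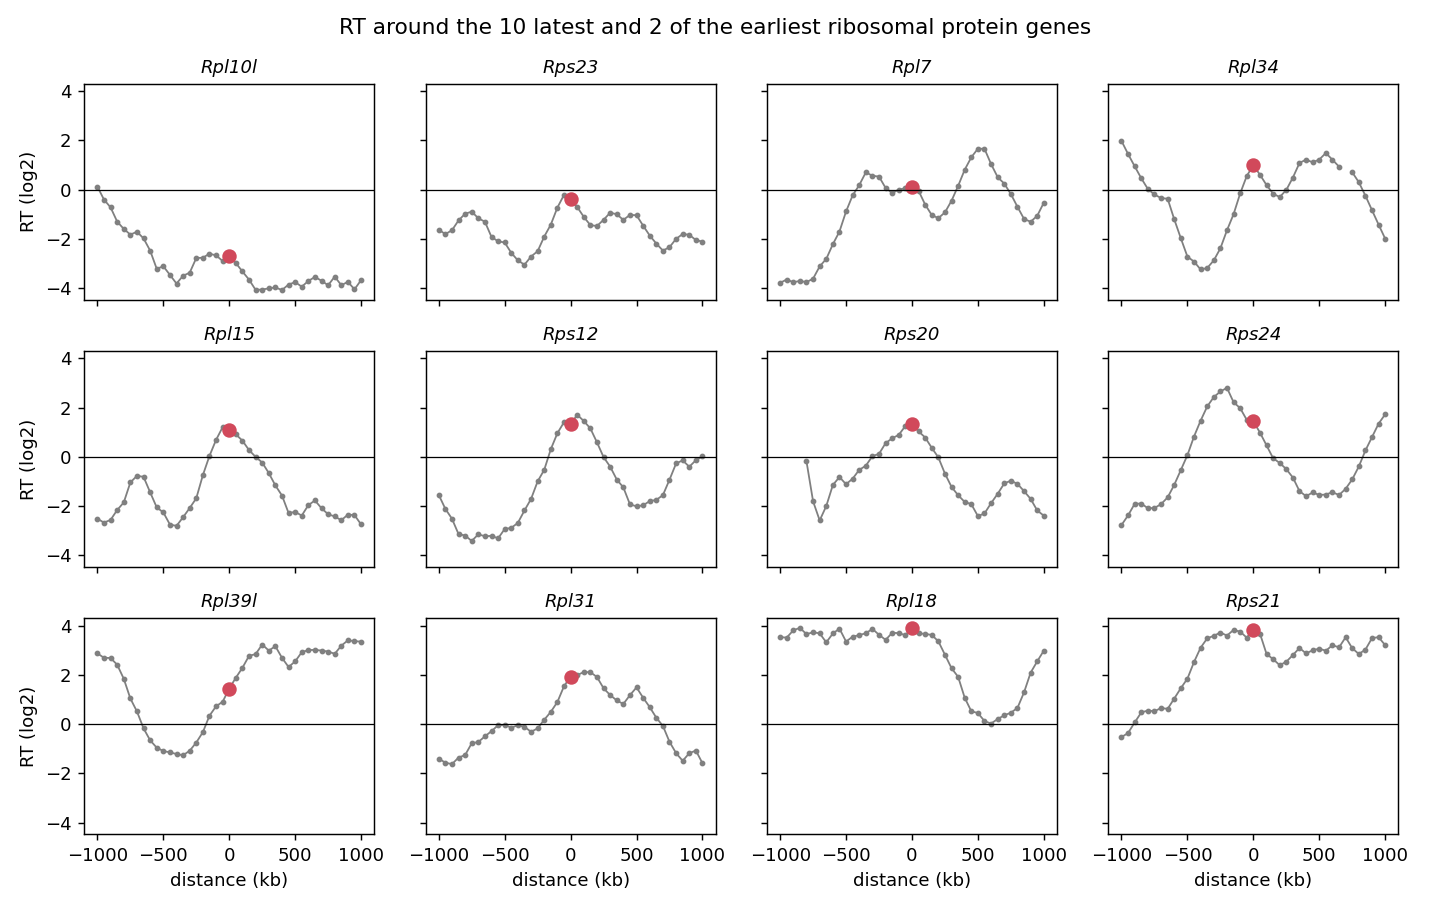
RT (y axis, log2) of the bins within 1000 kb of the gene start (x axis, distance along the chromosome in kb) for the 10 members with the lowest RT and, in the last 2 panels, Rpl18 and Rps21 from among the 10 with the highest, with the bin of the gene start as a red dot. Rps23, Rpl7, Rpl34, Rpl15, Rps12 and Rps20 sit at or within 1 bin of the highest of the 9 bins around them, Rpl39l, Rps24 and Rpl31 lie on slopes, while Rpl18 and Rps21 have an RT of 3.90 and 3.83 at the start.

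The other members of the 10 latest were Rpl15 (RT 1.09), Rps12 (1.32), Rps20 (1.34), Rps24 (1.44), Rpl39l (1.44) and Rpl31 (1.93). Rpl15 and Rps12 each lay in an early run of 400 kb, Rps20 in one of 500 kb and Rps24 in one of 650 kb. In the run of Rps12 the other gene starts are Slc18b1, the vanin genes Vnn1 and Vnn3 and 8 genes of trace amine-associated receptors, a family of chemosensory receptors. Rpl39l, Rps24 and Rpl31 lay on slopes of 8.20, 7.07 and 5.74 log2 per Mb, fitted over 5 bins. In all, 13 of the 74 early members (17.6%) lay in runs under 1 Mb, close to the 18.8% of all early protein-coding genes. Besides those already named they include Rpl37 (450 kb), Rps7 (500 kb), Rpl24 (600 kb) and Rps6 (650 kb).

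Most members lay well inside long early segments. Over the 74 early members the run of consecutive bins above 0 had a median length of 3700 kb (quartiles 1650 and 5700), compared with 2550 kb (1300 and 4450) over the 15357 early protein-coding genes. The median distance to the nearer end of the run was 925 kb against 550 kb. Only 3 of 76 members (3.95%) were early and within 100 kb of an end, Rpl7, Rpl34 and Rps24, where 11.2% of all protein-coding genes were. The longest run, 13000 kb on chromosome 17 from 23350001 to 36350000, held 6 members (Rps2, Rpl3l, Rps10, Rpl10a, Rps28 and Rps18), with RT from 3.24 to 3.80. In total 22 members shared 8 runs, and the 76 genes lay in 62 runs and 74 bins.

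Rps2 and Rpl3l share the bin chr17:24700001-24750000, with an RT of 3.75, so they have a single RT and are not independent. Rps2 is a core gene of the small subunit, whereas Rpl3l is a paralog of Rpl3 that is restricted to striated muscle and heart.

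The 4 members whose symbols end in l, all paralogs of another ribosomal protein gene, differed widely. Rpl3l had an RT of 3.75 and its parent Rpl3, which lies on chromosome 15, of 3.61, a difference under the noise of a pair of bins. Rps27l, a paralog known as a target of p53, had an RT of 2.72 and its parent Rps27 of 3.62. Rpl39l, expressed mainly in testis, had an RT of 1.44 and its parent Rpl39, on X, of 3.06. Rpl10l, described above, was the extreme. Of the paralogs with longer symbols, which the rule does not take in, Rpl22l1 had an RT of 0.36, compared with 3.76 for Rpl22, Rps27rt 3.02, Rpl36al 3.14 and Rpl7l1 3.57. All 4 of these were above 0.

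The ribosomal protein genes outside the rule were early replicating as well. Fau had an RT of 3.59, the scaffold gene Rack1 of 2.90 and Rps3a1 of 2.14. On X, where RT was measured in the same profile, Rpl10 had an RT of 3.60, Rps4x 3.28, Rpl39 3.06 and Rpl36a 2.32. With these genes the 10 lowest values stay those of the members named above.

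Away from the genes RT declined on both sides, though not yet in the next bin to the right. The median over the members was 3.39 in the bin of the gene start, 2.93 at 200 kb to the left, and 1.68 and 1.55 at 1000 kb to the left and right. For all protein-coding genes the median was 2.35 in the bin of the start, 2.02 and 1.93 at 200 kb, and 0.94 and 0.91 at 1000 kb. The share of members above 0 fell from 97.4% at the start to 64.9% and 68.4% at 1000 kb, where that of all protein-coding genes was 58.7% and 58.4%. In the bins 1000 kb away the 2 sets were thus closer to each other than at the gene start. The medians did not approach each other steadily, however. At 650 kb to the left they were 2.59 for the members and 1.31 for all protein-coding genes. At 800 kb to the right they were 2.42 and 1.12. Within 1 Mb, 39 of the 76 members (51.3%) had at least 1 bin at or below 0, as did 75.8% of all protein-coding genes. These shares include genes whose own bin is at or below 0. Among genes with RT above 0 it was 37 of 74 members (50%) and 67.4% of protein-coding genes.

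**Figure D3:**
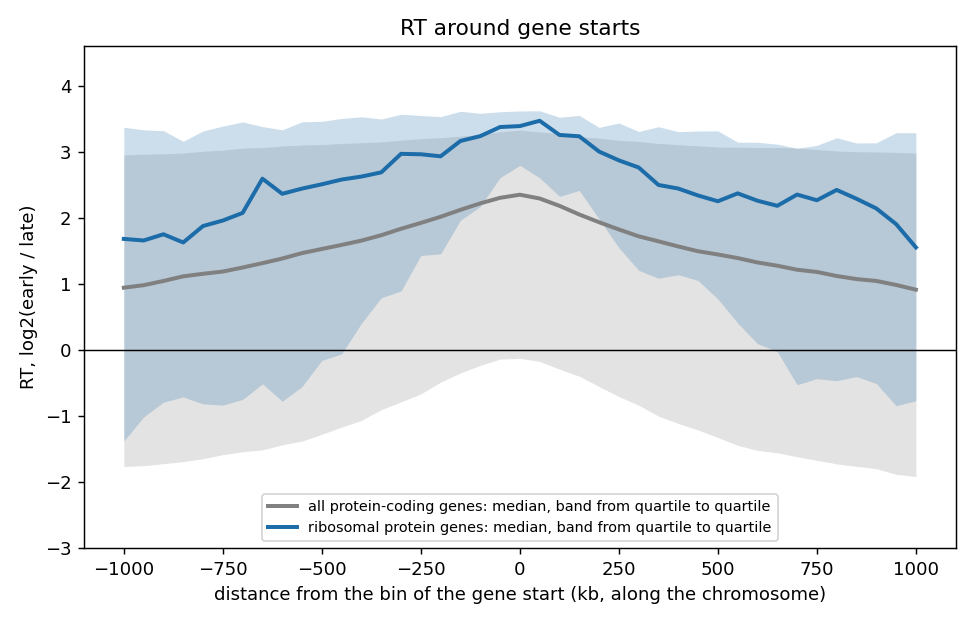
Median RT (lines, log2) and quartiles (bands) in 50 kb bins within 1000 kb of the bin of the gene start (x axis, distance along the chromosome in kb) for the 76 ribosomal protein genes in blue and all 20732 protein-coding genes in grey. The medians are 3.39 and 2.35 at the start, and the lower quartile of the members rises from -1.38 at 1000 kb to the left to 2.79 at the start.

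The height of a gene over its surroundings was taken as its RT less the mean of the bins 400 kb to either side. It had a median of 0.75 over the members and was above 0 in 66 of 76 (86.8%), where 66.1% of all protein-coding genes were above their sides. The share depends on the level of RT, so it was also taken within ranges of RT. Among members with RT above 3, 42 of 49 (85.7%) were above their sides, close to the 85.5% of all genes at that level. From RT 2 to 3 it was 15 of 17 members (88.2%) and 74.5% of the genes, with median heights of 1.28 and 0.96. From RT 0 to 2 it was 7 of 8 members (87.5%) and 64.2% of the genes, with median heights of 1.78 and 0.59. The share of members thus stayed near that in the highest range while that of all genes fell, but the lower ranges hold few members. The greatest heights at or below RT 3 were those of Rps7 (4.69), Rpl37 (4.67) and Rpl24 (4.29), the last a gene mutated in the Belly spot and tail mouse. The 3 early members at or below RT 3 that were not above their sides were Rplp1 (-0.62), Rpl7 (-0.40) and Rpl14 (-0.32).

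Local maxima were counted in the same ranges, as genes at or within 1 bin of the highest RT in the 9 bins centered on them. Above RT 3 this held for 23 of 49 members (46.9%) and 41.7% of the genes, and on such plateaus the order of neighboring bins is mostly within noise. From RT 2 to 3 it held for 6 of 17 members (35.3%), which were Rpl24, Rps7, Rpl30, Rpl37, Rpl35 and Rplp1, and for 28% of the genes. From RT 0 to 2 it held for 5 of 8 members (62.5%), which were Rps20, Rps12, Rpl15, Rpl34 and Rpl7, and for 21.3% of the genes. The members were thus close to the genes of like RT in the 2 higher ranges, and the lowest rests on 8 members.

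GC content and gene density moved with RT. The bins of the members had a median GC content of 46.9% (quartiles 44.3% and 50.1%) and a median of 2 protein-coding gene starts, the gene itself included, compared with 44.6% (41.5% and 48.1%) and 2 starts for all protein-coding genes. The member was the only gene start of its bin in 8 of 76 (10.5%), where 43.5% of all genes were, and 14 members (18.4%) lay in bins with 5 or more starts, as 6.41% of all genes did. Across the 76 members RT had a Spearman correlation of 0.75 (Pearson 0.62) with GC content and of 0.56 (0.43) with gene starts per bin. Across 20732 genes the values were 0.74 (0.70) and 0.33 (0.23). These are descriptions, since neighboring genes share bins and segments, and base composition can also affect how reads are sequenced and mapped.

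**Figure D4:**
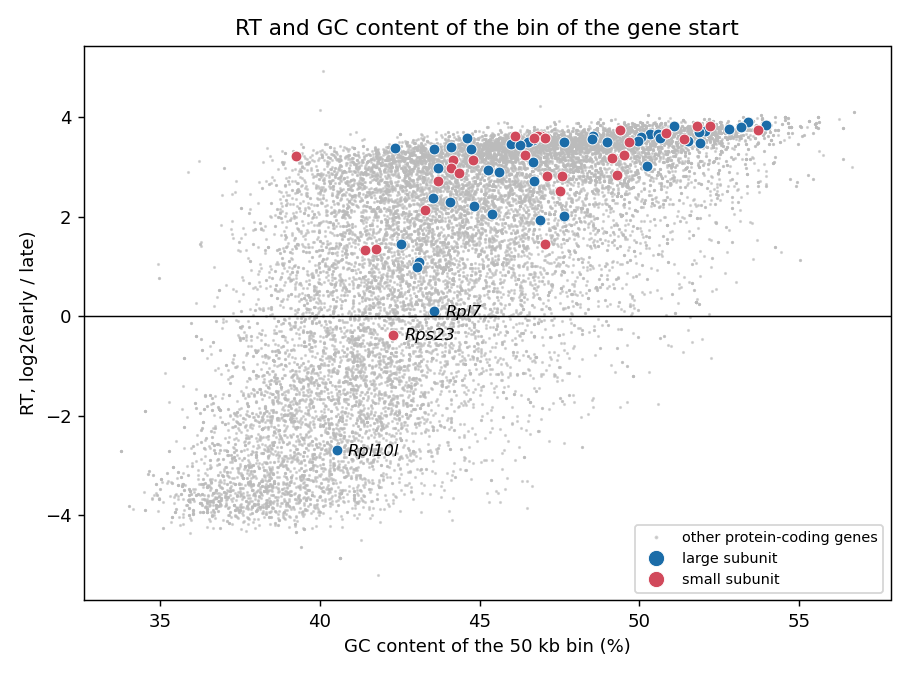
RT (y axis, log2) against the GC content of the 50 kb bin (x axis, %) for large subunit genes in blue, small subunit genes in red and other protein-coding genes in grey. RT is higher where GC content is higher among the members and the other genes alike, and members with RT under 2, with Rpl7, Rps23 and Rpl10l named, have a GC content between 40.5% and 47.0%.

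Members were also set beside all protein-coding genes within ranges of GC content. The ranges were cut at the quartiles of all protein-coding genes. Above 48.1% GC all 30 members were early and so were 98.8% of the genes, with medians of 3.67 and 3.49. From 44.6% to 48.1% all 26 members and 92.2% of the genes were early, with medians of 3.19 and 2.95. From 41.5% to 44.6%, 16 of 17 members and 73.9% of the genes were early, with medians of 2.37 and 1.63. Below 41.5%, 31.5% of the genes were early, with a median of -1.51, and the 3 members there were Rps27a (3.21), Rps12 (1.32) and Rpl10l (-2.70). By gene starts, 7 of the 8 members alone in their bin were early, compared with 66.6% of such genes, and all 14 with 5 or more starts were, compared with 90.4%. How far GC content and gene density account for the level of the members was not tested.

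Features of gene structure were also set beside those of all protein-coding genes. A snoRNA gene of the same strand lay inside 27 of the 76 (35.5%), 54 snoRNA genes in all, whereas 1.18% of all protein-coding genes held one. Rpl4, at RT 3.35, held the most, 5, and Rpl13a held 4. Rps12 and Rpsa, with RT 1.32 and 2.52, held 3 each, so lower members carried them too. The median number of exons was 5 against 7 over all genes. In 8 members (10.5%) a gene of the other strand started within 1 kb upstream, close to the 6.99% over all genes.

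By chromosome, members were found on 18 of the 19 autosomes, and chromosome 19 had none, although Fau lies there. Chromosome 7 held the most, 14, with RT from 2.14 (Rps15a) to 3.90 (Rpl18). Chromosomes 9, 11 and 17 held 7 each, with RT from 2.02 to 3.67, from 3.21 to 3.82 and from 3.24 to 3.80. In 64 of 76 cases the member was above the median of the protein-coding genes of its own chromosome. On chromosome 3, where that median was 0.91, Rps27 had an RT of 3.62 and Rpl34 of 1.00. On chromosome 14, with a median of 1.42, Rps24 had an RT of 1.44 and Rpl15 of 1.09.

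Other genes of protein synthesis were set beside the members. Of 48 ribosome assembly factors 47 had RT above 0 (97.9%), with a median of 3.13, and the exception was Efl1, the GTPase that releases Eif6 from the large subunit, at -0.04, within noise of 0. The earliest was Emg1 (3.78). Of 14 genes of RNA polymerase I and its factors, which make ribosomal RNA, all 14 were above 0, with a median of 2.93 and a range from 1.13 (Twistnb) to 4.04 (Cd3eap). Of 35 cytosolic translation factors 33 were above 0 (94.3%), with a median of 3.31. The 2 others were the initiation factor subunits Eif3e (-1.20) and Eif3f (-0.0024), the latter within noise of 0, and the earliest was Eif3g (3.87). The genes with symbols that begin with Rps6k are a separate set, and all 8 on autosomes were above 0, with a median of 3.13. In order they were Rps6ka2 (1.46), Rps6kc1 (2.13), Rps6ka5 (2.90), Rps6kl1 (3.09), Rps6kb1 (3.17), Rps6ka4 (3.45), Rps6kb2 (3.57) and Rps6ka1 (3.59), while on X Rps6ka3 had an RT of 1.27 and Rps6ka6 of -1.40.

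The mitochondrial ribosomal protein genes, nuclear genes whose products form the ribosome of mitochondria, had more late members. RT was above 0 in 68 of 78 (87.2%), with a median of 3.18 and quartiles of 1.74 and 3.53. The latest were Mrpl3 (-2.72), Mrpl50 (-2.32) and Mrpl32 (-1.57), and the earliest was Mrpl54. The others at or below 0 were Mrps30 (-1.25), Mrps22 (-1.14), Mrpl1 (-0.89), Mrps9 (-0.85), Mrpl17 (-0.74), Mrpl23 (-0.34) and Mrpl19 (-0.22). Whether the share differs from that of the cytosolic genes was not tested.

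Processed pseudogenes of ribosomal proteins lacked the level of the genes. Of the 252 with a symbol that ends in -ps and a number, 172 had RT above 0 (68.3%), with a median of 1.68 and quartiles of -0.99 and 2.99. Over all 8905 processed pseudogenes 49.3% were above 0, and the median was -0.07. The named pseudogenes were thus between all processed pseudogenes and the members, of which 97.4% were above 0. Copies that GENCODE gives only a Gm symbol are among all processed pseudogenes and not among the 252.

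**Figure D5:**
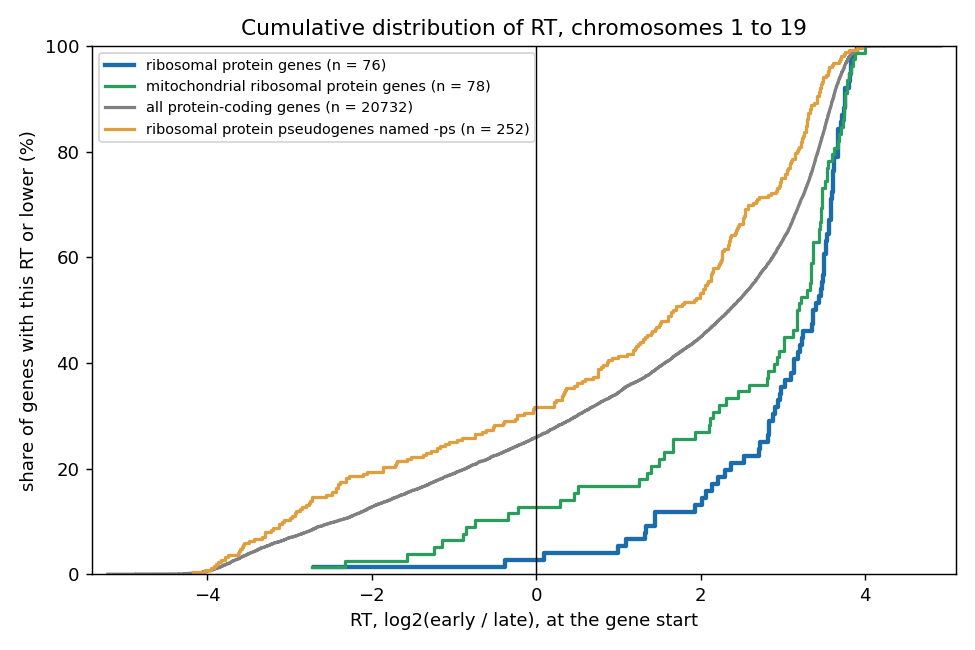
Share of genes (y axis, %) with an RT at or below the value on the x axis (log2) for the 76 ribosomal protein genes in blue, 78 mitochondrial ribosomal protein genes in green, 20732 protein-coding genes in grey and 252 ribosomal protein pseudogenes in orange. At RT 0 the curves stand at 2.63%, 12.8%, 25.9% and 31.7%.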

How the data were processed

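Repli-seq was performed by the authors on F121-9 cells in 2 early and 2 late S-phase libraries. Per the methods, read numbers were scaled by the authors to RPM in each fraction, and the deposited values are log2 ratios of the early to the late RPM in 50 kb bins. The submitters' processing notes name mm10, Bowtie2, SAMtools and bedtools. Whether and how replicates were combined, any filter on bins and any smoothing are not given in the sources used here. The number of reads behind a bin is unknown.

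Bin positions were taken as starts counted from 0 and printed from 1. The last bins of all chromosomes used fit the GRCm38 reference. Gene starts follow the strand in GENCODE vM21. GC content, gene starts and runs of bins on 1 side of RT 0, broken at missing bins, were computed per bin. The noise SD came from how far a bin departed from the mean of its neighbors in flat stretches (scaled median absolute deviation). The noise of the neighbors themselves was taken out, with bins treated as independent. Genes named are the 10 highest and 10 lowest, those near or below 0, paralogs with their parents, members that share bins, those in the shortest runs, and the ends of each other list. Genes with known roles, those with the most snoRNAs or the lowest GC and the greatest heights were added after their values were seen, as were the comparison with processed pseudogenes and the ranges of RT. Some genes are counted but not reported singly here. The members and lists were chosen with earlier results of these data known. The lookup, runs and noise SD were tested on simulated data. Python 3.11.15, numpy 2.4.6, scipy 1.17.1, pandas 2.3.3 and matplotlib 3.10.9 were used.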

Additional observations from a re-analysis of the deposited data

How the results depend on the processing

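No paired analysis was possible because the only deposited column does not separate replicates 1 and 2. For the same reason no replicate could be left out. Under 10 alternatives the share of members above the limit stayed between 94.7% (limit at RT 1, 72 of 76) and 98.7% (limit at the median of all bins, 75 of 76). The share of all protein-coding genes also changes with the limit and was not taken at these limits. Just below RT 1, Rpl34 (1.00) was at the percentile 34.4 of protein-coding genes. Under 8 alternatives the median stayed between 3.37 and 3.44, beside 3.39 in the main analysis. These covered the mean over the gene body, the mean of 3 bins, a running median over 5 bins, the members outside the rule, those on X, the paralogs left out, each bin counted once, and RefSeq starts, the last chosen after seeing the data. RefSeq places 1 member, Rps14, in another bin, with RT 3.48 in place of 3.57. Rps23 and Rpl10l were the only members at or below 0 with the gene body, the 3 bins and the running median. Rps23 was at -0.70 and Rpl7 at 0.0037 with the running median. The reads behind a bin are not known, which leaves the precision of single bins to the noise between neighbors.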
